A study of Mus musculus with 8 samples.

Results

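Cholesterol synthesis genes were followed in sorted fetal liver cells of mice that lack both VPS13A and VPS13C, a pair of proteins that bridge membranes and carry lipids between them. The 8 genes were taken by name as part of the SREBP2 pathway, by a rule that uses no measured value, though earlier results of these data were known when they were chosen. All 8 were present once among the 52636 genes of the count table, and all 8 passed the filter on low counts, as did 17378 genes in all.

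The cells were S0 cells of E12.5 fetal liver, which are live cells negative for a cocktail of lineage markers and for both CD71 and Ter119. The labels call them erythroid precursors. RNA was sequenced from 4 wild-type (WT) and 4 double knockout (DKO) samples, all C57BL/6J. DKO embryos came from intercrosses of Vps13a+/- Vps13c-/- mice, so every embryo of these litters lacked VPS13C and the WT embryos came from other litters. The Vps13a allele (tm1d) lacks 1 exon in every tissue after β-actin-Cre. Genotype and litter therefore cannot be told apart, and nothing says whether a library is 1 embryo or a pool, so p-values measure the spread between these samples.

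Cells make cholesterol from acetyl-CoA through the mevalonate pathway, a chain of enzymes in the cytosol and the endoplasmic reticulum. SREBP2, the product of Srebf2, is a transcription factor held in the endoplasmic reticulum while sterols are plentiful. Insig1 encodes the protein that holds it there, and when sterols fall the factor is carried to the Golgi, cleaved, and switches on the enzymes of the pathway, Insig1 and its own gene. Fetal hepatoblasts and dividing blood precursors both make sterols. The library totals were 42114489 to 50886469 counts in WT and 36981439 to 42587815 counts in DKO.

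A sterol regulatory element (SRE) is the short sequence that SREBPs bind, usually beside binding sites for NF-Y (a CCAAT box) and Sp1 (a GC box). RefSeq promoter windows (GRCm38.p6), each of 300 bases from 250 before the start site to 50 after it, were found for 5 of the 8 genes, namely Srebf2, Hmgcs1, Idi1, Lss and Insig1. The windows of 4 genes whose counts differed between the genotypes are shown, 5′ to 3′ on the + strand, with matches on either strand in capitals. They are chr15:82147019-82147318 for Srebf2, chr13:119690101-119690400 for Hmgcs1, chr13:8885356-8885655 for Idi1 and chr10:76531355-76531654 for Lss.
Srebf2: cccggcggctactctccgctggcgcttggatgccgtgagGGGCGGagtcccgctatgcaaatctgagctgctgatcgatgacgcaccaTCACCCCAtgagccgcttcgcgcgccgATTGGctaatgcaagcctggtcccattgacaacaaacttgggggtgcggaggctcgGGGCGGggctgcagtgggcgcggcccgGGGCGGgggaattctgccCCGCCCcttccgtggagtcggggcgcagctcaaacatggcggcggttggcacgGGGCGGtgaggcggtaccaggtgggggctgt
Hmgcs1: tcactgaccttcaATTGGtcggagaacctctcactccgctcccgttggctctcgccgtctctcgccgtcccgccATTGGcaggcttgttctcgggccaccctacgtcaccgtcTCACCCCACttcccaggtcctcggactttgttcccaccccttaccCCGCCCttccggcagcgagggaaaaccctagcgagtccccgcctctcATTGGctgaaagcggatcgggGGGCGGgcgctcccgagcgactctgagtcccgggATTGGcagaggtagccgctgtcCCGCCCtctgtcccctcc
Idi1: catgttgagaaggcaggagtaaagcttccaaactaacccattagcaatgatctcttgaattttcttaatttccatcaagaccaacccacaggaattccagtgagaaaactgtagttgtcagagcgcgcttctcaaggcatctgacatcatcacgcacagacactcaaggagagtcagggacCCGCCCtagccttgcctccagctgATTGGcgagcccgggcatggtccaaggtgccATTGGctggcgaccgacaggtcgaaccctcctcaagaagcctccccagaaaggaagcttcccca
Lss: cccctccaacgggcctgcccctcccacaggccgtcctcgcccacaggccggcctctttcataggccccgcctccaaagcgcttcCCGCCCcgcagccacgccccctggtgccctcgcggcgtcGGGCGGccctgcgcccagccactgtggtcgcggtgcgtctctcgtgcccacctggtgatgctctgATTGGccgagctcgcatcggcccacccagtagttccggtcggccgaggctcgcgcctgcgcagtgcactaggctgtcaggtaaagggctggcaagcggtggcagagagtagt
The capitals mark the CCAAT box, the GC box (letters GGGCGG), and the SRE letters CACCNCAC and TCACCCCA, all searched with their reverse complements. The last pair overlap in Hmgcs1.

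All 5 windows, that of Insig1 (chr5:28071162-28071461) included, held a CCAAT box and a GC box. A CCAAT box stood in 37.4% and a GC box in 35.7% of the 32851 windows of the same length, and both stood in 12.8%. Among the 14956 windows of genes that were tested here the shares were 37.2%, 58.8% and 21.5%. The SRE core CACCCCAC was found in Hmgcs1 alone, with its first base at position -136 from the start site, and in 2.87% of all windows. CACCNCAC, with 1 free base, was again found in Hmgcs1 alone and in 6.32% of all windows. The overlapping letters TCACCCCA, searched after these windows had been read, started at position -137 in Hmgcs1 and at position -162 in Srebf2, and stood in 1.56% of all windows. Hmgcs1 held 4 CCAAT boxes and Srebf2 5 GC boxes. These matches are letters in a window and no binding was measured.

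The design sets DKO against WT S0 cells. All 8 genes had a lower mean in DKO, and 6 of the 8 fell, namely Srebf2, Hmgcs1, Idi1, Fdps, Sqle and Lss. The DKO mean lay between 38.9% (Idi1) and 70.8% (Fdft1) of the WT mean. Of all genes tested, 10.8% (1878) were called lower and 10.7% (1867) higher, and none of the 8 was called higher. A gene was called where edgeR's quasi-likelihood test gave a Benjamini-Hochberg adjusted p under 0.05 over all genes tested. The median log2 fold change of the 8 genes was -0.75, beside 0.03 over all genes. The counts in bulk RNA cannot tell fewer cells that use the pathway from less of its RNA in each cell.

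Srebf2 (chr15:82147181-82205379, + strand, GRCm38) encodes the factor that drives the pathway. Its normalized counts, which are counts scaled to the mean effective library size, were 5300, 4400, 4318 and 5770 in WT libraries 1 to 4 and 3188, 3241, 2948 and 2833 in DKO libraries 1 to 4. Every DKO library lay below every WT library, and the DKO libraries stood close together. The WT mean of 4947 ± 706 compared with a DKO mean of 3052 ± 194 (SD, n = 4 each), and the log2 fold change was -0.70 with a standard error of 0.11 (edgeR adjusted p = 0.00435). An exact two-sided permutation test over the libraries gave p = 0.0286, the smallest p that 4 against 4 allows, for this gene and for each of the other 5 called genes.

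Hmgcs1 (chr13:119690379-119708260, + strand) encodes the cytosolic HMG-CoA synthase, which feeds the mevalonate pathway. WT libraries 1 to 4 held 8637, 8973, 8810 and 11489 normalized counts of it, and DKO libraries 1 to 4 held 5296, 6606, 2577 and 4496, the order kept for every gene that follows. The groups did not overlap, with WT library 4 above the other WT libraries and DKO library 3 below the rest. The DKO mean of 4744 ± 1686 was 50.1% of the WT mean of 9478 ± 1348 (SD, n = 4 each), with a log2 fold change of -0.998, a standard error of 0.24 and an edgeR adjusted p of 0.0195.

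Idi1 (chr13:8885501-8892451, + strand), the isomerase that turns isopentenyl diphosphate into dimethylallyl diphosphate, showed the largest fold change of the 8 genes. The WT libraries held 1430, 1307, 1332 and 1595 normalized counts and the DKO libraries 605, 830, 404 and 365. The highest DKO library stayed well below the lowest WT library. The mean went from 1416 ± 130 to 551 ± 214 (SD, n = 4 each), which gave a log2 fold change of -1.36 with a standard error of 0.25 (edgeR adjusted p = 0.00678).

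Fdps (chr3:89093588-89101959, - strand) encodes farnesyl diphosphate synthase, which makes the last precursor shared by sterols, prenyl groups, dolichol and ubiquinone. Its normalized counts were 13713, 14727, 16354 and 16036 in WT and 8611, 12173, 6332 and 8964 in DKO. DKO library 2 was nearest to WT without reaching it. The means were 15208 ± 1220 and 9020 ± 2404 (SD, n = 4 each), with a log2 fold change of -0.75 ± 0.17 (SE, edgeR adjusted p = 0.0149). Gm43738 is annotated over most of Fdps on the same strand and held 0.131% of its counts on average.

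Fdft1 (chr14:63145150-63179578, - strand) encodes squalene synthase, the step that commits carbon to sterols. The WT libraries held 4255, 4680, 4986 and 5614 normalized counts, the DKO libraries 3672, 4483, 1995 and 3684, and DKO library 2 lay within the WT range. The means were 4884 ± 572 and 3459 ± 1047 (SD, n = 4 each), and the log2 fold change of -0.50 ± 0.21 (SE) did not pass the test (edgeR adjusted p = 0.122, exact permutation p = 0.0571). The last exon of Fdft1 shares 774 bases of annotation with Ctsb on the opposite strand, which had 275% of the counts of Fdft1 on average. The library kit does not mark strand, so reads there cannot be told apart and the value of Fdft1 is uncertain. Ctsb itself averaged 12941 normalized counts in the WT and 10166 in the DKO libraries, and its log2 fold change was -0.35 (edgeR adjusted p = 0.106).

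Sqle (chr15:59315077-59331192, + strand) encodes squalene epoxidase, an oxygen-dependent and rate-limiting step of the sterol branch. Its normalized counts ran 6690, 7003, 6326 and 8582 over the WT libraries and 4318, 5627, 3152 and 3981 over the DKO libraries. The groups did not overlap. The means were 7150 ± 994 and 4270 ± 1029 (SD, n = 4 each), with a log2 fold change of -0.74 ± 0.17 (SE, edgeR adjusted p = 0.0152).

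Lss (chr10:76531588-76557138, + strand) encodes lanosterol synthase, which closes the sterol rings. The WT libraries held 4507, 4293, 4331 and 5930 normalized counts and the DKO libraries 2533, 2952, 1305 and 1864. WT library 4 stood above the other WT libraries and all DKO libraries stood below WT. The DKO mean was 45.4% of the WT mean (2164 ± 727 against 4765 ± 782, SD, n = 4 each), with a log2 fold change of -1.14 ± 0.23 (SE, edgeR adjusted p = 0.0103).

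Insig1 (chr5:28071363-28078662, + strand), the brake on SREBP2 and one of its targets, was present at 2178, 2249, 2405 and 2749 normalized counts in the WT libraries and at 1754, 2313, 999 and 1377 in the DKO libraries. DKO library 2 lay above 2 of the 4 WT libraries. The means were 2395 ± 254 and 1611 ± 561 (SD, n = 4 each), and the log2 fold change of -0.57 ± 0.22 (SE) did not pass the test (edgeR adjusted p = 0.0955, exact permutation p = 0.0857). The 6 called genes were also the 6 without overlap between the genotypes, which was true of 28.1% of all genes tested.

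**Figure D1:**
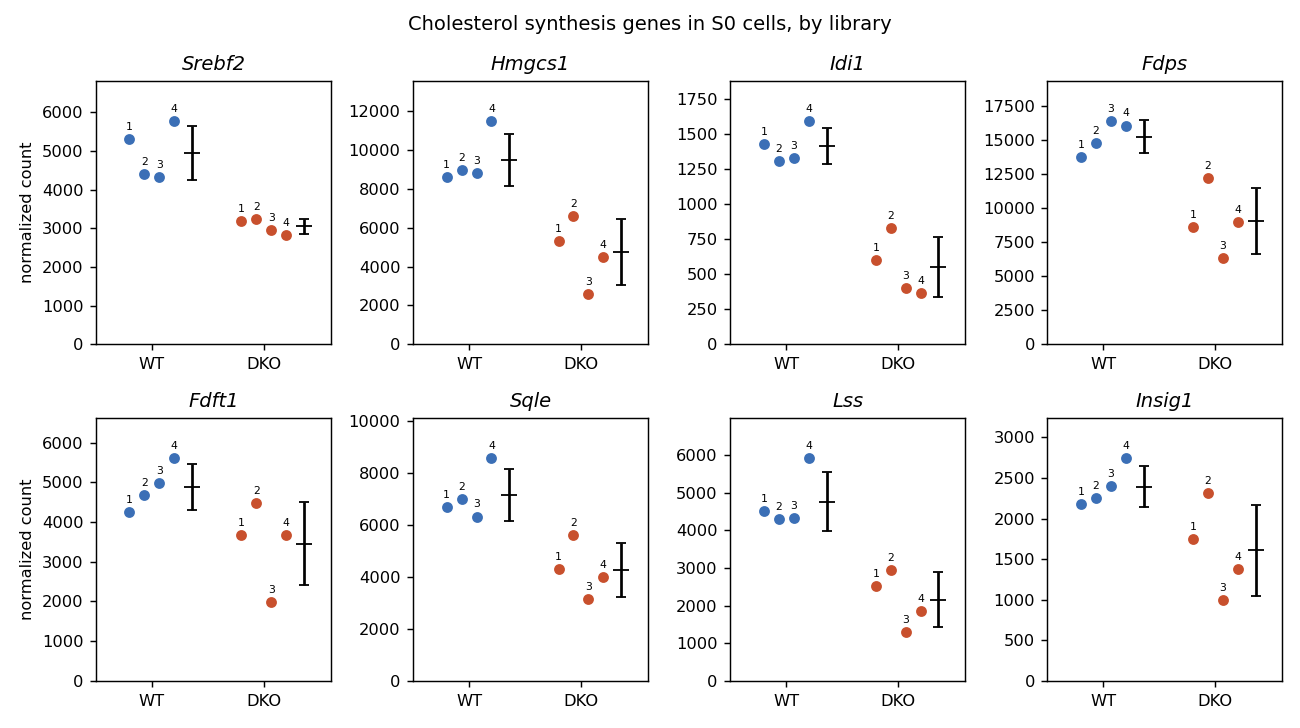
Normalized counts of the 8 cholesterol synthesis genes (vertical axes, from 0) in each WT and DKO library, with replicate numbers beside the points and the mean ± SD of 4 libraries as bars. In 6 panels every DKO point lies under every WT point, while DKO library 2 reaches the WT range for Fdft1 and Insig1.

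Some calls depended on which libraries were fitted. WT library 4 was the highest WT library for 7 of the 8 genes. Without WT library 4, 3 genes remained called lower, and the edgeR adjusted p was 0.0643 for Hmgcs1, 0.0528 for Sqle and 0.0509 for Fdps. Calls fell over all genes too, with 5.31% called lower in that fit in place of 10.8%. Without DKO library 4, Hmgcs1 had an adjusted p of 0.0507 and the other 5 stayed called. Without DKO library 2, Insig1 was called as well (log2 fold change -0.80, edgeR adjusted p = 0.0215), which made 7. Srebf2, Idi1 and Lss were called whichever library was left out, with adjusted p of at most 0.0188, 0.0288 and 0.0378. With a log2 fold change beyond 1 asked for as well, 2 genes were called, Idi1 and Lss.

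The DKO libraries were ordered alike from gene to gene. DKO library 2 was the highest DKO library for all 8 genes, and the lowest library of all was DKO library 3 for 6 genes and DKO library 4 for Idi1 and Srebf2. The median log2 ratio of the 8 genes to their WT means was -0.77 in DKO library 1, -0.42 in DKO library 2, -1.27 in DKO library 3 and -0.81 in DKO library 4. In the WT libraries it was between -0.11 and 0.22. The spread within a genotype was wider in DKO for every gene but Srebf2. The coefficient of variation of the 7 others was 24.1% to 38.8% in DKO and 8.02% to 16.4% in WT, whereas that of Srebf2 was 6.36% in DKO and 14.3% in WT.

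Over the 8 libraries, the log2 CPM values of the 28 pairs of these genes correlated with a median Pearson r of 0.94 (0.67 to 0.99), which includes the difference between the genotypes. With each genotype's mean removed, the median r was 0.86, with 0.18 (Srebf2 and Fdps) as the lowest and 0.98 (Hmgcs1 and Lss) as the highest, and all 28 were above 0. The pairs share libraries, depth and cell content, so these values are a description. Among 14045 other protein-coding genes, those whose log2 CPM followed the mean of the 8 most closely over the 8 libraries were Slc36a2 (r = 0.993), Aldh1l1 (0.990), Ugt2b34 (0.990), Marc1 (0.988) and Hadh (0.988).

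Levels were compared between genes as FPKM-like values, that is CPM values after TMM scaling, per kilobase of annotated exon. In WT the order of these levels was Fdps (82.3 ± 6.6), Hmgcs1 (47.0 ± 6.7), Sqle (29.4 ± 4.1), Fdft1 (26.3 ± 3.1), Insig1 (17.6 ± 1.9), Srebf2 (15.7 ± 2.2), Lss (10.1 ± 1.7) and Idi1 (9.20 ± 0.85; SD, n = 4 each). The ranges of Sqle and Fdft1, of Insig1 and Srebf2, and of Lss and Idi1 overlapped. Compared within each library, Lss lay above Idi1 in every WT and every DKO library. Sqle and Fdft1, and Insig1 and Srebf2, did not keep 1 order over the WT libraries. In DKO the level of Fdps was 48.8 ± 13.0, that of Hmgcs1 23.5 ± 8.4, that of Lss 4.57 ± 1.53 and that of Idi1 3.58 ± 1.39. The order in DKO was the same except that Fdft1 (18.6 ± 5.6) came before Sqle (17.5 ± 4.2), a pair that overlapped in both genotypes. With the longest transcript as the length, Sqle came before Fdft1 in DKO as well. The DKO ranges of Hmgcs1 and Fdft1, of Sqle and Insig1, of Insig1 and Srebf2, and of Lss and Idi1 also overlapped.

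The rest of the pathway was read from a list of 16 other enzymes, of which 15 were tested and Idi2 was too low. Of these 15, 6 fell and none rose, and 14 had a log2 fold change below 0 with a median of -0.65, beside 0.03 over all genes and the 10.8% of all genes called lower. The 6 were Dhcr7 (-0.85 ± 0.16 SE), the last reductase of the pathway, Hsd17b7 (-0.81 ± 0.18) and Nsdhl (-0.80 ± 0.12), which remove methyl groups from the sterol nucleus, Acat2 (-0.69 ± 0.16), the cytosolic thiolase at its head, Ebp (-0.65 ± 0.20), the sterol isomerase, and Lbr (-0.65 ± 0.15), a sterol reductase of the nuclear envelope. Lbr also had the highest level per kilobase of this list, 77.1 ± 10.3 in the WT and 49.3 ± 9.9 in the DKO libraries (SD, n = 4 each). Nsdhl and Ebp are on the X chromosome. With the 6 enzymes among the 8 genes, 11 of 21 tested enzymes fell and 20 had a value below 0, Pmvk being the exception at 0.01.

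The number of these 15 enzymes called lower moved with single libraries, from 2 without WT library 4 (Dhcr7 and Nsdhl) and 3 without WT library 1 to 12 without DKO library 2, and DESeq2 called 11 of them lower with all libraries. Of all genes, 5.31% were called lower without WT library 4 and 4.96% without WT library 1. The share was 9.47% without DKO library 2 and 13.7% with DESeq2. Ebp had an edgeR adjusted p of 0.0446 with all libraries and between 0.0741 and 0.106 without WT library 1, 2, 3 or 4 or DKO library 3 or 4. Acat2 reached 0.0588 without WT library 4, 0.0516 without WT library 1 and 0.0509 without WT library 2. Lbr reached 0.0564 without WT library 1 and 0.0555 without WT library 4, and Hsd17b7 0.0515 without WT library 4.

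**Figure D2:**
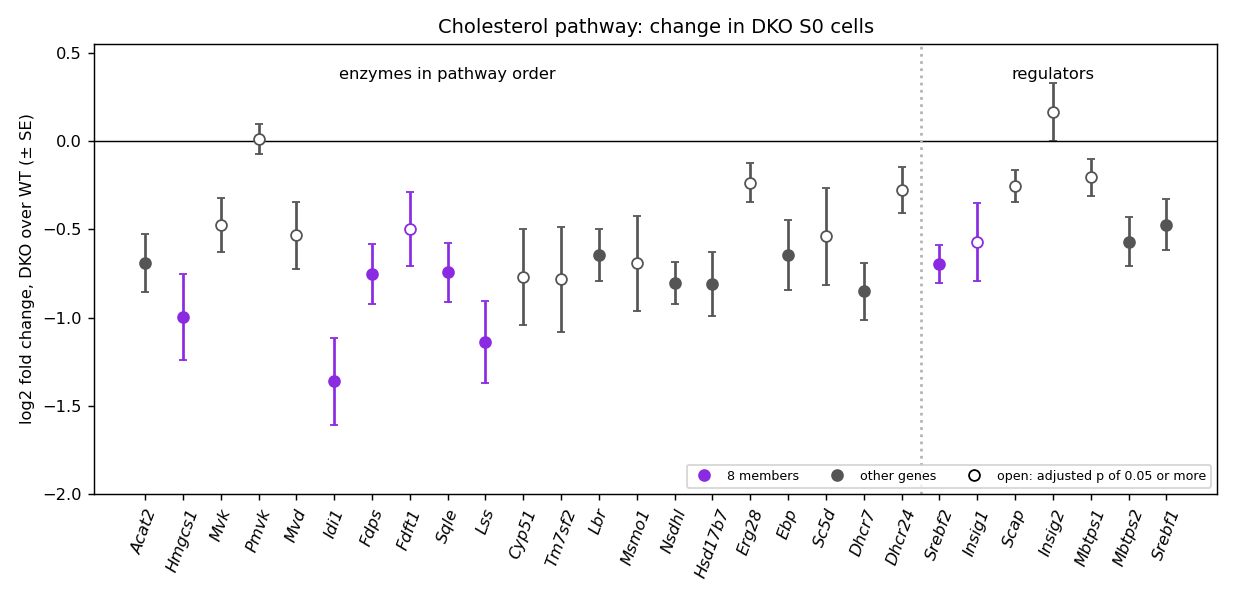
Log2 fold change of DKO over WT (vertical axis, bars ± SE of the edgeR fit, 4 libraries each) for 21 enzymes in the order of the pathway and for 7 regulators, with the 8 genes in purple and open points for an adjusted p of 0.05 or more. All enzymes but Pmvk lie below 0, with Idi1 at -1.36 the lowest.

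Of 12 genes of SREBP processing and of sterol-regulated protein decay, 5 fell (41.7%, beside 10.8% of all genes) and none rose (median -0.23). They were Erlin1 (-0.65) and Erlin2 (-0.54), which form a sterol-responsive scaffold in the endoplasmic reticulum, Mbtps2 (-0.57), the site-2 protease that frees SREBPs in the Golgi, Ube2g2 (-0.51), a ubiquitin-conjugating enzyme of the decay pathway with the highest level per kilobase here (50.8 ± 3.1 in WT), and Srebf1 (-0.47), which encodes the SREBP of fatty acid synthesis. Mbtps2, like Nsdhl and Ebp, is on the X chromosome. Scap, the escort of SREBPs, had a value of -0.26 (edgeR adjusted p = 0.0756) and Insig2 of 0.17 (edgeR adjusted p = 0.510), and neither passed the test. Of the 5, Ube2g2 alone stayed called whichever library was left out, and without WT library 1 it was the only gene of this list called. Of all genes, 4.96% were called lower in that fit. Without WT library 1 the adjusted p was 0.0607 for Erlin1, 0.0782 for Erlin2, 0.0712 for Mbtps2 and 0.109 for Srebf1. Calls were also lost without WT library 2 for Mbtps2 (0.0679), Erlin2 (0.0629) and Srebf1 (0.0821), without WT library 3 for Srebf1 (0.0839), and without WT library 4 for Erlin1 (0.0712), Erlin2 (0.0757) and Srebf1 (0.109). Leaving out DKO library 2 took that of Erlin2 (0.0552), and leaving out DKO library 4 those of Erlin2 (0.0579) and Srebf1 (0.0807).

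Of 11 genes of cholesterol uptake and transport, 3 fell (27.3%, beside 10.8% of all genes) and none rose (median -0.30). Scarb1, the receptor for high-density lipoprotein, changed by -0.73 ± 0.14 (SE), Stard4, a soluble sterol carrier, by -0.71 ± 0.14 and Lipa, the lysosomal acid lipase that frees cholesterol from its esters, by -0.63 ± 0.12, and all 3 stayed called whichever library was left out. Tmem97, a sterol-responsive membrane protein, had the highest level per kilobase of the list, 124 ± 5.6 in the WT and 101 ± 14 in the DKO libraries (SD, n = 4 each), with a value of -0.30 (edgeR adjusted p = 0.0654) and 0.0392 without DKO library 2.

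The list for the response to sterol excess, with LXR targets, efflux, esterification and oxysterol synthesis, had 13 of 14 genes tested, and Ch25h was too low. Here 3 fell (23.1%, beside 10.8% of all genes) and none rose. The median was -0.05, beside 0.03 over all genes, and -0.28 beside 0.01 without DKO library 1. Abcg1, a sterol exporter, changed by -1.13 ± 0.17 (SE), Nr1h3, which encodes the sensor LXRα, by -1.10 ± 0.27 and Lpcat3, a phospholipid acyltransferase, by -0.36 ± 0.12. Lpcat3, which also had the highest level per kilobase (39.1 ± 1.7 in WT), had an adjusted p of 0.049 with all libraries and of up to 0.134 with a library left out, and lost its call without each of 6 libraries, WT libraries 1 to 4 and DKO libraries 1 and 3. Nr1h3 reached 0.0714 without WT library 2, 0.0628 without WT library 4 and 0.0509 without DKO library 4. The exporter Abca1 (-0.37, edgeR adjusted p = 0.364) did not pass the test.

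Of 16 genes that use mevalonate products for other ends, 3 fell (18.8%) and 2 rose (12.5%), beside 10.8% and 10.7% of all genes, with a median of -0.11. Zmpste24 (-0.64 ± 0.14 SE) and Icmt (-0.47 ± 0.13), which process prenylated proteins, were among those that fell. Coq2 (0.56 ± 0.09), the prenyltransferase of ubiquinone synthesis, and Rabggtb (0.41 ± 0.10), a subunit of the enzyme that prenylates Rab proteins, rose. Rabggtb had the highest level per kilobase (37.1 ± 3.8 in WT), and its adjusted p reached 0.0584 without WT library 1, 0.053 without WT library 4 and 0.0519 without DKO library 4. Icmt lost its call without WT library 1, 2 or 3 or DKO library 3 or 4, with adjusted p of up to 0.0848.

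Of 12 fatty acid genes known as SREBP1 targets, 5 fell (41.7%, beside 10.8% of all genes) and none rose (median -0.52). They were Fads2 (-1.11 ± 0.17 SE) and Scd2 (-0.69 ± 0.20), which are desaturases, Acly (-0.90 ± 0.13), which makes cytosolic acetyl-CoA for both fatty acids and sterols and had the highest level per kilobase (66.2 ± 7.1 in WT), Elovl5 (-0.68 ± 0.12), an elongase, and Fasn (-0.43 ± 0.13), fatty acid synthase. The adjusted p of Scd2 was up to 0.0988 without WT library 1, 2, 3 or 4 or DKO library 4. That of Fasn was up to 0.0979 without WT library 1, 2, 3 or 4 or DKO library 1 or 4. The 12 genes gave 3 calls without any 1 WT library and 7 without DKO library 2. Of all genes, 4.96% to 8.75% were called lower without a WT library and 9.47% without DKO library 2.

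**Figure D3:**
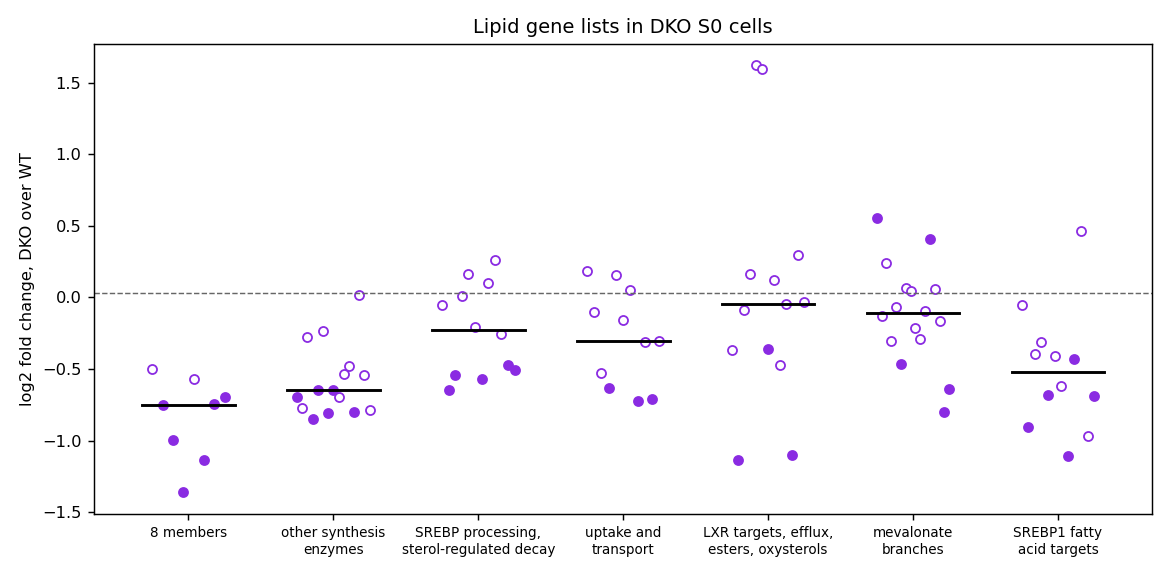
Log2 fold change of DKO over WT (vertical axis) for each tested gene of 7 lipid gene lists, filled where the adjusted p was under 0.05, with the list median as a bar and the median of all genes (0.03) as a dashed line. From left to right the list medians are -0.75, -0.65, -0.23, -0.30, -0.05, -0.11 and -0.52.

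The samples differed in more than the labelled genotype. Vps13a fell in DKO, from 1943 ± 130 to 794 ± 194 normalized counts (SD, n = 4 each, edgeR adjusted p = 0.00247), while Vps13c averaged 583 ± 75 in the WT and 816 ± 279 in the DKO libraries (edgeR adjusted p = 0.182), and a count over the whole gene cannot show the loss of part of it. The 4 WT libraries and DKO library 3 had 2516 to 3354 normalized counts of the Y-linked Ddx3y and at most 62.3 of Xist, whereas the other 3 DKO libraries had at most 41.0 of Ddx3y and at least 18029 of Xist. Genotype and embryo sex were therefore largely confounded. With 1 DKO library like WT in these genes, a comparison within sex has no replicates in DKO and cannot be tested.

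Erythroid markers were present in every library, with 51551 to 77446 summed normalized counts over 12 genes in the WT and 41673 to 99487 in the DKO libraries, and Hba-a1 was the most abundant of them (13834 ± 7555 in the WT and 17915 ± 11654 in the DKO libraries, SD, n = 4 each). Hepatoblast markers were abundant too, and 12 genes summed to 736289 to 996116 in WT and to 532625, 840870, 218949 and 733849 in DKO libraries 1 to 4. None of the 12 was called, 11 had a value below 0, and the median was -0.73. Alb was the lowest at -1.05 (edgeR adjusted p = 0.0627), and Afp, the most abundant, was at -0.35 (edgeR adjusted p = 0.472). For 5 of the 12, every DKO library lay below every WT library, beside 28.1% of all genes without overlap in either direction. DKO library 2, with the highest DKO levels of all 8 cholesterol genes, had the highest hepatoblast sum among the DKO libraries (0.96 of the WT mean), and DKO library 3, with the lowest levels of 6, had the lowest sum (0.25). DKO libraries 1 and 4 went the other way. Their hepatoblast sums were 0.61 and 0.84 of the WT mean, and their sums of the 8 genes were 0.60 and 0.55. Against DKO libraries 2 and 4 only, whose hepatoblast sums were 0.96 and 0.84 of the WT mean, the same count of 6 of 8 genes was called lower with a median of -0.63, a comparison chosen after seeing the data. Of all genes in that fit, 10.7% were called lower. The comparison did not equalize hepatoblast content, so it cannot show what part that content had in the lower counts. The median log2 ratio of the 12 markers to WT was -0.21 in DKO library 2 and -0.32 in DKO library 4. Alb had 75095 and 54278 normalized counts there, beside a WT mean of 98033. In that comparison the 15 other enzymes gave 4 calls and a median of -0.41, in place of 6 and -0.65, and the 12 genes of SREBP processing and decay gave 3 calls in place of 5.

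Progenitor markers summed to 35570 to 44749 in WT and to 17095 to 23602 in DKO. Of 8, 5 fell (62.5%, beside 10.8% of all genes), Cd34 among them (-1.94 ± 0.49 SE, edgeR adjusted p = 0.0229). Mesenchyme markers summed to 2041 to 5769 in WT and to 12996 to 45108 in DKO. Of 8, 7 rose (87.5%, beside 10.7% of all genes), with Col1a1 at 2.32 ± 0.49 (SE, edgeR adjusted p = 0.0121). Pdgfrb did not pass the test (0.21, edgeR adjusted p = 0.668). Endothelial markers fell in 2 of 8 (25.0%, beside 10.8% of all genes), Pecam1 and Erg. They summed to 3339 to 4236 in WT and to 1805 to 2183 in DKO, with Pecam1 at -1.14 (edgeR adjusted p = 0.0126). Of 10 macrophage markers 8 were tested, and Cd163 had 0 counts in every library. Of the 8, 1 fell (Adgre1), which is 12.5% and near the 10.8% of all genes. The sums were 2404 to 3295 in WT and 661 to 1590 in DKO. Csf1r alone averaged 2196 of the mean WT sum of 2829, and its value was -1.63 (edgeR adjusted p = 0.0961). At low counts, 2 markers had values above 0 and were not called, C1qa (0.78) and C1qc (0.47). The 6 megakaryocyte markers summed to 53473 to 61680 in WT and to 39841 to 114910 in DKO. Of these, 5 had a value above 0, with Pf4 at 0.67 (edgeR adjusted p = 0.182), and none was called higher. The other was called lower, at -1.03 (16.7% of the list, beside 10.8% of all genes). In 8 interferon-induced genes the sums were 1843 to 3400 in WT and 8992 to 19765 in DKO, and 6 rose (75.0%, beside 10.7% of all genes). The part of each of these cell types, and of embryo sex, in the lower counts of the cholesterol genes was not tested.

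**Figure D4:**
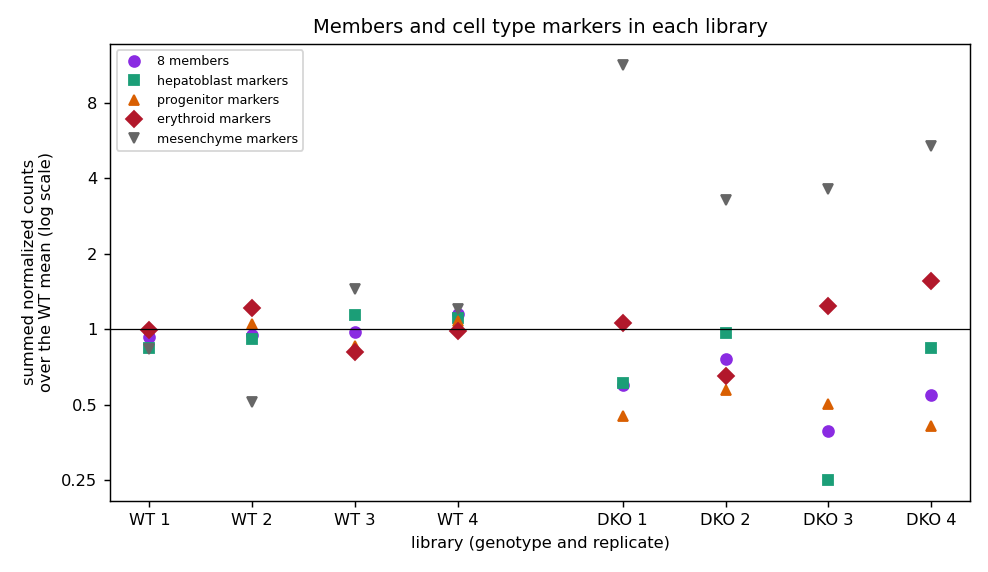
Summed normalized counts in each library divided by the mean of the 4 WT libraries (vertical axis, log scale) for the 8 cholesterol genes and for hepatoblast, progenitor, erythroid and mesenchyme markers. The 8 genes lie at 0.60, 0.76, 0.39 and 0.55 of the WT mean in DKO libraries 1 to 4, hepatoblast markers at 0.61, 0.96, 0.25 and 0.84, and mesenchyme markers at 3.27 to 11.3.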

How the data were processed

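RNA of S0 cells from 4 WT and 4 DKO samples was measured in low-input poly(A) libraries made by template switching. The authors deposited counts per gene as 1 table, unnormalized. Per the labels and the study's methods, reads were trimmed with fastp 0.21.0 and aligned to mm10 with HISAT2 2.2.1, alignments of low mapping quality were removed, and StringTie 1.3.3b with its script prepDE gave the counts, which it derives from coverage and which count both mates of a pair. The kit does not mark strand, so overlapping genes share reads. Of the 52636 identifiers, 52489 matched GENCODE vM21 without the version and 49121 with it. The Benjamini-Hochberg adjustment ran over the 17378 genes that passed edgeR's filterByExpr. edgeR 4.0.16 (R 4.3.3) was run with TMM scaling and its robust quasi-likelihood test, and DESeq2 1.42.0 was an alternative. Samples were grouped by the labelled genotype, and no covariate was used. The replicates of a genotype differed by far more than sampling noise. The scripts were tested on simulated data.

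The 8 members and all lists were chosen with earlier results of these data known. Besides the 8, the text names in each pathway list up to 6 called genes with the largest fold changes and the gene with the highest level per kilobase, in each marker list the most abundant gene, the 5 genes most alike over the libraries, and Vps13a, Vps13c, Xist and Ddx3y. Pmvk, Scap, Insig2, Abca1, Idi2, Ch25h, Ctsb, Gm43738, Alb, Pdgfrb, Erg, Cd163, Adgre1, C1qa and C1qc were named after their values were seen. Some genes that this rule would name are not reported here. Alternatives covered scaling, filters, the genes fitted, left-out libraries, a replicate block and the call rule.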

Additional observations from a re-analysis of the deposited data

Results flagged for a closer look

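In 46 groups of 4 libraries (each of the 8 genes and each gene list, in each genotype), 4 held a library far from the other 3, its gap to the nearest divided by the range being above Dixon's 95% critical value. Chance gives about 1 such group in 20. WT library 4 stood above the other WT libraries for Hmgcs1, at 11489 normalized counts, and for Lss, at 5930. DKO library 3 had the lowest sum over the genes of SREBP processing and sterol-regulated decay, 26984, and DKO library 1 the lowest sum over the genes of the mevalonate branches, 27649.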

How the results depend on the processing

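Under the alternatives with at least 2 libraries in each genotype, none of the 8 genes was called higher, all 8 kept a negative log2 fold change, and 6 were called lower by DESeq2, with no TMM scaling, with upper-quartile scaling, with either other filter, with counts divided by 2, with protein-coding genes other than histones alone, and with DKO libraries 2 and 4 alone. With 1 library left out, 3 to 7 were called lower, and 2 with a log2 fold change beyond 1 as well. Their median was -0.92 to -0.65 with 1 library left out and -1.30 with DKO library 3 as the only DKO library, a value with no test, since the spread of DKO is then unknown and was wider than that of WT for 7 of the 8 genes. Over all genes, 858 to 1915 were called higher and 898 to 2012 lower with 1 library left out, and 1076 and 423 with a log2 fold change beyond 1 as well. Upper-quartile scaling moved the median of all genes from 0.03 to 0.14, the genes called lower to 1242 and the share of higher calls from 49.9% to 66.7%, the median of the 8 genes to -0.64 and that of the list around LXR from -0.05 to 0.06. The level per kilobase of Fdps was 8.95 times that of Idi1 in WT, and 11.0 times with the longest transcript as the length, which also exchanged Insig1 and Srebf2 in the order. In DKO that length exchanged Fdft1 and Sqle as well. The replicate numbers are not known to pair samples, and the deviations of same-numbered libraries correlated at -0.10 to 0.05. With the replicate block 1026 genes were called higher and 1083 lower, and the 8 genes kept 6 calls with a median of -0.78. The cause of these shifts was not tested. With 4 libraries a genotype, exact permutation cannot go below p = 0.0286. Ebp, Lbr, Mbtps2, Erlin1, Lpcat3, Icmt and Fasn were among the genes not called against DKO libraries 2 and 4 alone. Over the 87 tested genes of the 7 lipid lists and the 17 alternatives with 2 or more libraries in each genotype, 1476 values were obtained, of which 81 lost a call, 28 gained one and 1367 stayed on their side of the threshold, with 0 changes of the direction of a called gene.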
